A study of Homo sapiens with 6 samples.

Results

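The genes described here form the airway mucous secretory programme, 9 genes taken by symbol from the 25737 entries (24462 different symbols) that each library lists. They are the mucins MUC5AC, MUC5B and MUC1, the secretory products AGR2 and LCN2, and the epithelial transcription factors ELF3, SPDEF, FOXA1 and FOXA2. Each symbol has 1 entry. They were chosen by symbol and role with their scaled counts over the doses in these same 6 libraries known, so their levels are given as a description and carry no test.

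Mucous cells of the airway make gel-forming mucins, fold them in the endoplasmic reticulum, glycosylate them in the Golgi and release them from granules onto the epithelial surface. SPDEF is a transcription factor of the ETS family that drives the goblet cell fate, and forkhead factors such as FOXA1 and FOXA2 open chromatin at genes of endoderm-derived epithelia. TGF-β1 is known for moving epithelial cells toward a mesenchymal state, with loss of their differentiated genes.

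The study measured 3′ mRNA in a pair of established human lines given as wild type, A549 from a lung carcinoma and BEAS-2B from bronchial epithelium. Each line was left untreated or exposed for 48 h to TGF-β1 at 1 or 5 ng/mL in low-serum medium, while the lines were maintained in medium with more serum. The sources used here do not give the serum of the untreated cultures, so in every comparison with them a change of serum and TGF-β1 cannot be told apart. Each of the 6 conditions had 1 library of 4120624 to 7841350 counts, so there is no replicate spread to hold a difference against and no p-value is given. A549 is a tumor line and BEAS-2B an immortalized one, each a single line and no substitute for airway tissue.

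Counts were scaled by TMM factors to a common library size and are called normalized counts. ND stands for log2(normalized count + 1). A gene was called when its fold change (FC, with 1 added to both normalized counts) reached 2 and its ND value reached 7, a normalized count of 127, in at least 1 of the libraries compared. Folds are ratios of normalized counts with exact 95% Clopper-Pearson intervals in brackets. With 1 library per condition these hold counting error alone and no spread between cultures. They take each read as independent. PCR copies were not told apart by molecular identifiers, so the intervals can be too narrow even for counting error, most of all at a few counts. Where 1 library had 0 counts, the fold was taken against a fixed 3 counts in that library and is written as at least this large. Such a bound takes the other count as exact. It is larger than the fold at which the 95% interval starts, because that interval allows more than 3 counts at 0. The interval is the more cautious limit.

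MUC5AC and MUC5B encode the gel-forming mucins of airway mucus and lie side by side on the plus strand, at chr11:1157953-1201138 and chr11:1223066-1262172 of GRCh38 (GENCODE 29). MUC1, a mucin anchored in the cell membrane, lies at chr1:155185824-155192916 on the minus strand. AGR2, a disulfide isomerase needed for mucin folding, lies at chr7:16791811-16833433 on the minus strand, and LCN2, a secreted protein that binds bacterial siderophores, at chr9:128149071-128153455 on the plus strand. ELF3, an ETS factor of differentiated epithelia, lies at chr1:202007945-202017188 on the plus strand. The remaining factors lie on minus strands, SPDEF at chr6:34537802-34556333, FOXA1 at chr14:37589984-37596059 and FOXA2 at chr20:22581005-22585455. The submitters' processing notes name hg19, so these positions identify the genes and are not the counted intervals. TTC6 overlaps FOXA1 on the opposite strand and had at most 5 counts in any library. The antisense genes MUC5B-AS1 and ELF3-AS1 overlap MUC5B and ELF3, and since the strand setting of the counting is not given in the sources used here, reads of either partner cannot be told apart. On the same strand, AL713999.1 overlaps MUC1, AL121722.1 overlaps FOXA2, AL691482.3 overlaps ELF3 and MIR6744 overlaps MUC5B. Reads of these genes cannot be told apart either where they share bases.

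Promoter sequences are shown for AGR2, LCN2, ELF3 and SPDEF, each more than 2-fold lower in both treated A549 libraries. RefSeq promoters of 300 bases (GRCh38.p14, 250 bases before the annotated start and 50 from it on) were matched for 6 of the 9 genes. MUC5AC, MUC5B and FOXA2 were not matched. The windows are chr7:16804950-16805249 (minus strand) for AGR2, chr9:128149203-128149502 (plus) for LCN2, chr1:202010337-202010636 (plus) for ELF3 and chr6:34556280-34556579 (minus) for SPDEF, each written 5′ to 3′ on the strand of its gene. Capitals mark the E-box CACCTG, the letters that SNAI and ZEB repressors are known to bind, and the forkhead words TGTTTAC and TATTTAC, all searched on both strands.
AGR2: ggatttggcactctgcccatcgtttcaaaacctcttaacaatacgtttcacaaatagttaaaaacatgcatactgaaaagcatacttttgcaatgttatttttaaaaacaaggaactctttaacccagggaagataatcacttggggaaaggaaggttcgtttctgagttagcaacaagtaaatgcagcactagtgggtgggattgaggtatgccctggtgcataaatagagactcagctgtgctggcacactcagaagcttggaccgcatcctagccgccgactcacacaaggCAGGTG
LCN2: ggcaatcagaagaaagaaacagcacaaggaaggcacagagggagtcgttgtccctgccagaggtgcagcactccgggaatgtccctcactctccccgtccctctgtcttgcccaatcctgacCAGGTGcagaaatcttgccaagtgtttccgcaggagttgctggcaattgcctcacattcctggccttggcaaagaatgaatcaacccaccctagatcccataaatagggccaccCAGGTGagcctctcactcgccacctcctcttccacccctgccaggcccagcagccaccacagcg
ELF3: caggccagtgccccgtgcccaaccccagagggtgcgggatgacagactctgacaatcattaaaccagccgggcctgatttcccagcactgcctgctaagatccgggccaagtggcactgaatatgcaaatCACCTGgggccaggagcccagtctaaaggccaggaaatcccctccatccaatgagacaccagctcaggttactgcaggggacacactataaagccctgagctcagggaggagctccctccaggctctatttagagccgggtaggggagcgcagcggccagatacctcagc
SPDEF: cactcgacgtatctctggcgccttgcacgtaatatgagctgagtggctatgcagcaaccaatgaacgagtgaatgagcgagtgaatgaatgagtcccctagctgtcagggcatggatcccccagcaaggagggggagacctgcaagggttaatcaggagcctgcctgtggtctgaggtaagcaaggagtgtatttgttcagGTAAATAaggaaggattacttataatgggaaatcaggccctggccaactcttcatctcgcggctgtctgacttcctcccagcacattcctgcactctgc

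An E-box stood in 5 of the 6 promoters. LCN2 had 2, the nearer from 14 to 9 bases before the start, ELF3 had 1 from 120 to 115 bases before it, and AGR2 had 1 behind the start. MUC1 had 2 and FOXA1 had 1. SPDEF had no E-box and was the gene with a forkhead word, from 49 to 43 bases before its start. Of 35116 RefSeq promoters of the same length, 20.6% held an E-box and 5.97% a forkhead word. FOXA1 and MUC1, which held an E-box as well, stayed within 2-fold of the control in A549 cells. In BEAS-2B cells at 5 ng/mL FOXA1 was 12.4-fold (1.89 to 524) lower, from 14 to 1 counts, and MUC1 4.35-fold (2.73 to 7.22) lower. The part of the E-box in these levels was not tested. The words were picked with these sequences in view, and a match describes letters, not binding.

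In untreated cells the programme separated the cell lines. Untreated A549 cells had 399 counts of MUC5AC, 218 of MUC5B, 1154 of AGR2, 57 of SPDEF and 682 of FOXA2, and untreated BEAS-2B cells had 0 of each. These genes were at least 138-fold, 75.5-fold, 400-fold, 19.7-fold and 236-fold higher in A549 cells, in this order, with intervals that start at 112, 60.9, 324, 15.5 and 192. LCN2 (263 against 12 counts) was 22.8-fold (12.8 to 44.6) and ELF3 (1146 against 330 counts) 3.61-fold (3.19 to 4.09) higher. FOXA1 was 3.86-fold (2.11 to 7.54) higher, from 52 and 14 counts. MUC1 stood the other way, with 18 counts in A549 and 108 in BEAS-2B cells, 5.78-fold (3.49 to 10.1) lower in A549 cells. In this comparison 6 of the 9 genes were called higher in A549 cells, against 18.1% of the 7329 entries that reached the minimum, and these values chose the genes. MUC5AC, MUC5B, AGR2, LCN2 and FOXA2 reached the minimum through the A549 library alone, so they had to be higher there. In bulk RNA, fewer cells of a type and less RNA per cell cannot be told apart.

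**Figure D1:**
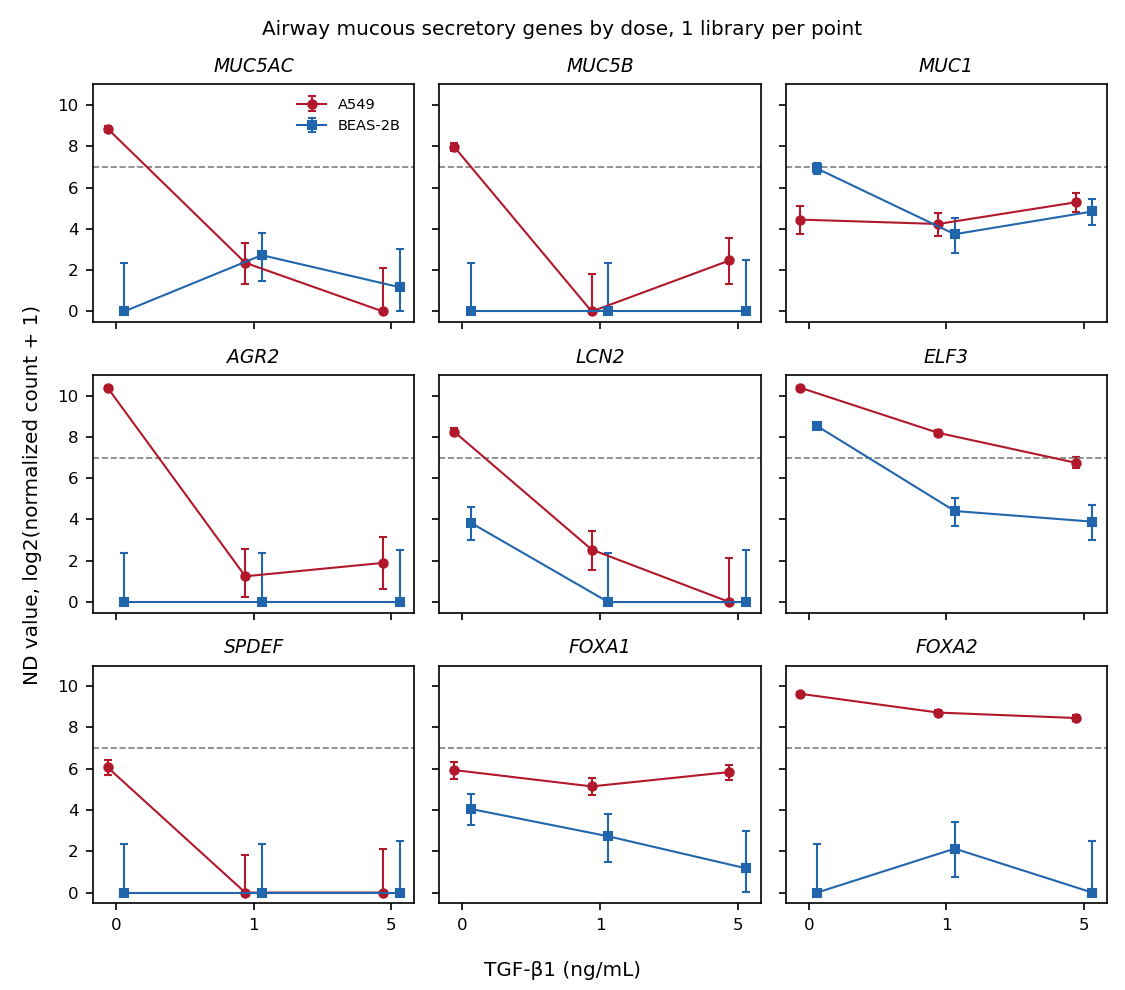
ND value, log2(normalized count + 1), of each gene against the TGF-β1 dose in ng/mL, with A549 cells as circles and BEAS-2B cells as squares, 1 library per point. Bars are exact 95% Poisson intervals of the count and the dashed line is the ND minimum of 7. In A549 cells MUC5AC, MUC5B, AGR2, LCN2 and SPDEF drop to an ND value under 3 at 1 ng/mL, while ELF3 declines in steps and FOXA2 stays over 8.

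The gel-forming mucins MUC5AC and MUC5B and the secretory products AGR2 and LCN2 had at most 7 counts in either treated A549 library. MUC5AC had 399, 6 and 0 counts at 0, 1 and 5 ng/mL TGF-β1. It fell 112-fold (51.1 to 307) at 1 ng/mL and at least 170-fold at 5 ng/mL, where the interval starts at 137. MUC5B had 218, 0 and 5 counts in the same order. It fell at least 123-fold at 1 ng/mL, with an interval that starts at 98.8, and 55.7-fold (23.5 to 173) at 5 ng/mL. Both gel-forming mucins thus held fewer than 10 counts in each treated A549 library, while from 1 to 5 ng/mL MUC5AC went from 6 to 0 counts, within counting error, and MUC5B from 0 to 5, where the ratio has an interval that starts at 1.21.

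AGR2 had 1154, 2 and 3 counts in A549 cells. It fell 973-fold (269 to 8044) at 1 ng/mL and 491-fold (168 to 2386) at 5 ng/mL. Most of the loss was present at the lower dose, and the ratio of 5 to 1 ng/mL, 1.98 (0.227 to 23.7), has an interval that includes 1. LCN2 had 263, 7 and 0 counts, 63.4-fold (30.3 to 159) lower at 1 ng/mL and at least 112-fold lower at 5 ng/mL, with an interval that starts at 90.4. At 5 against 1 ng/mL LCN2 was lower beyond counting error (upper end of the ratio 0.916), though from 7 counts.

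MUC1, the membrane mucin, did not follow the gel-forming mucins in A549 cells. It had 18, 26 and 42 counts, which are normalized counts of 20.9, 17.9 and 38.1. The ratio to the untreated library was 0.857 (0.452 to 1.66) at 1 ng/mL and 1.83 (1.03 to 3.37) at 5 ng/mL, and the gene did not reach the ND minimum in any A549 library.

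The transcription factors of A549 cells differed among themselves. SPDEF had 57, 0 and 0 counts, at least 32.0-fold lower at 1 ng/mL and at least 24.3-fold lower at 5 ng/mL, with intervals that start at 25.2 and 19.1. Its ND value of untreated cells was 6.07, so it was not called. ELF3 had 1146, 425 and 117 counts and fell 4.55-fold (4.06 to 5.09) and then 12.5-fold (10.3 to 15.3) against the control. The step from 1 to 5 ng/mL was itself 2.75-fold (2.24 to 3.41), so ELF3 was still detected where AGR2 and both gel-forming mucins were nearly gone.

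Among the transcription factors, the forkhead genes changed least in A549 cells. FOXA2 had 682, 612 and 386 counts in A549 cells, normalized counts of 790, 420 and 350. It was 1.88-fold (1.68 to 2.10) lower at 1 ng/mL, just short of a call, and fell 2.26-fold (1.99 to 2.56) at 5 ng/mL, just past it. FOXA1 had 52, 50 and 62 counts, normalized counts of 60.2, 34.4 and 56.3. Its ratio was 0.570 (0.379 to 0.857) at 1 ng/mL and 0.934 (0.635 to 1.38) at 5 ng/mL, the latter with a log2 FC between -0.30 and 0.05 over 8 alternative scalings, filters, pseudocounts and depths, positive only with counts thinned to the smallest library total. FOXA1 at 1 ng/mL was the lowest of its A549 libraries, and its untreated and 5 ng/mL intervals overlap.

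Counted together, 5 of the 9 genes were called lower in A549 cells at 1 ng/mL, against 12.6% of 7007 entries that reached the minimum there. At 5 ng/mL, 6 of the 9 were called lower, against 17.1% of 7115 entries, and 0 were called higher at either dose. The median log2 FC over all 9 genes was -5.72 at 1 ng/mL and -5.52 at 5 ng/mL, or -5.00 and -4.60 with genes at 0 counts set to their bounds. Over all entries at the minimum it was 0.09 and 0.11. Both doses share the untreated library, and 3 genes, MUC1, SPDEF and FOXA1, did not reach the minimum at either dose. The other 6 did. Of these, MUC5AC, MUC5B, AGR2 and LCN2 reached it through the untreated library alone, as did ELF3 at 5 ng/mL. Genes that reach it this way had to be lower after treatment, and the genes were chosen with these values known. The counts and medians thus describe these genes and hold no result about the programme. Between the doses, ELF3 was the 1 gene called lower at 5 ng/mL, against 1.79% of 6467 entries. It reached the minimum there through the 1 ng/mL library alone.

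BEAS-2B cells had little of the programme to lose. ELF3 had 330, 18 and 11 counts at 0, 1 and 5 ng/mL and fell 18.2-fold (11.3 to 31.0) and 26.6-fold (14.7 to 53.7). The interval at 1 ng/mL lies apart from that of A549 cells at this dose, and the intervals at 5 ng/mL overlap. Unlike in A549 cells, the loss in BEAS-2B cells was nearly complete at the lower dose, and the further step to 5 ng/mL was 1.46-fold (0.654 to 3.43).

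MUC1 had 108, 11 and 22 counts in BEAS-2B cells. It was 9.73-fold (5.23 to 20.1) lower at 1 ng/mL and 4.35-fold (2.73 to 7.22) lower at 5 ng/mL. Its untreated level, a normalized count of 120, lies just under the minimum, so it was not called. LCN2 had 12, 0 and 0 counts, at least 3.97-fold and 3.54-fold lower, with intervals that start at 2.75 and 2.46. FOXA1 had 14, 5 and 1 counts, with a ratio of 0.360 (0.102 to 1.06) at 1 ng/mL and 0.0807 (0.00191 to 0.530) at 5 ng/mL. The loss of FOXA1 exceeded counting error at 5 ng/mL and not at 1 ng/mL.

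The other genes were not detectable in BEAS-2B cells beyond a few counts. AGR2, MUC5B and SPDEF had 0 counts in every BEAS-2B library, which allows up to a normalized count of 3.35, 3.38 and 3.78 at 0, 1 and 5 ng/mL. MUC5AC had 0, 5 and 1 counts and FOXA2 had 0, 3 and 0. ELF3 was thus the 1 gene of the 9 called lower at either dose, against 9.13% of 6681 entries at 1 ng/mL and 11.6% of 6735 entries at 5 ng/mL. ELF3 was also the 1 gene that reached the minimum. It did so through the untreated library alone, so it had to be lower after treatment. The median log2 FC over all 9 genes was 0 at both doses, with 3 genes at 1 ng/mL and 4 at 5 ng/mL at 0 counts in both libraries compared. Between the doses 0 genes were called, against 0.412% of 6306 entries called lower.

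**Figure D2:**
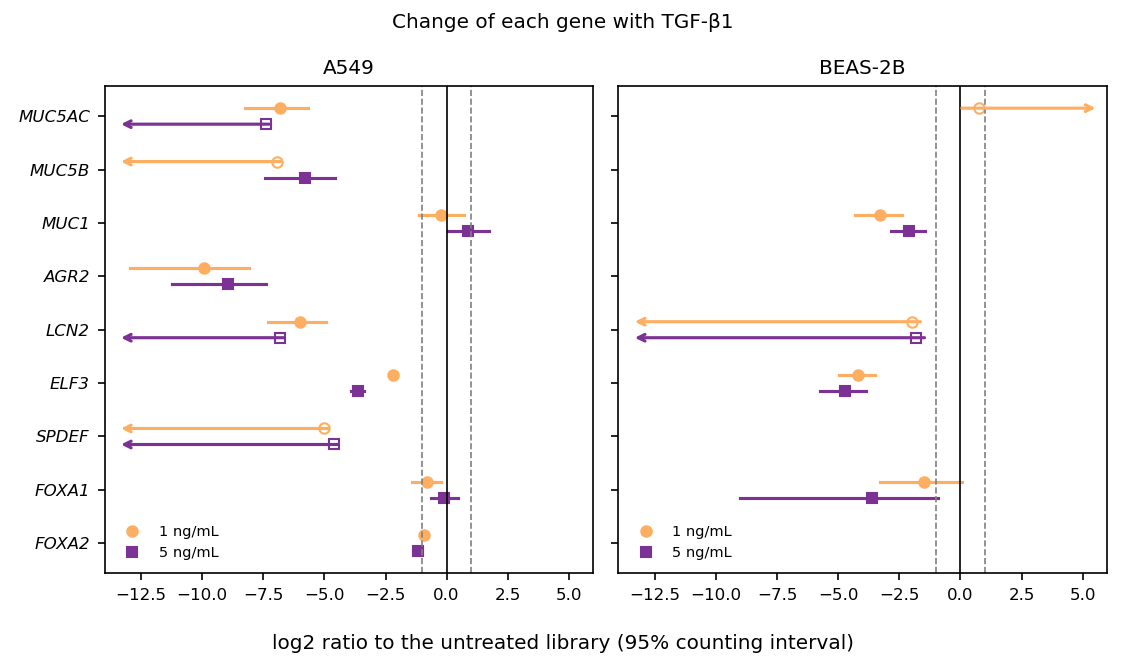
log2 ratio of each treated library to the untreated library of its cell line, for 1 ng/mL (circles) and 5 ng/mL (squares) TGF-β1, with 95% counting intervals as bars. Open symbols are bounds where 1 library had 0 counts, arrows mark intervals with no limit on the side of the arrow, dashed lines mark a 2-fold change, and pairs with at most 3 counts in both libraries are left out. In A549 cells MUC5AC, MUC5B, AGR2, LCN2, ELF3 and SPDEF lie left of the 2-fold line at both doses, FOXA2 lies near it at both doses, and FOXA1 lies between it and 0.

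The markers of the labelled cell types were checked in the same libraries. In A549 cells the epithelial markers EPCAM (49, 7 and 2 counts), CDH1 (640, 30 and 8) and KRT8 (6112, 2785 and 1792) were lower with dose, and the sum of the 5 epithelial markers was a normalized count of 24833, 11182 and 10461. This loss ran beside that of the mucous genes, and its part in their values was not tested. In BEAS-2B cells EPCAM was at 0 in all 3 libraries and CDH1 had at most 2 counts, while the sum of the 5 markers was a normalized count of 2050, 1042 and 1262. KRT8 had 372, 204 and 175 counts there and KRT18 had 1418, 717 and 806, both under a 2-fold change and not called, and KRT19, under the minimum, had 46, 5 and 19. The lower sum ran beside the fall of ELF3 in BEAS-2B cells, and its part in that value was not tested.

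Defining markers of most other lung cell types were at or near 0. The basal markers KRT5 and KRT14 had at most 1 count in any library. In A549 cells TP63 had 8, 5 and 3 counts, KRT15 had 2, 4 and 5, and NGFR had 0, 15 and 6. The 5 basal markers summed to a normalized count of 11.6, 16.5 and 12.7 in A549 and to 2.23, 1.13 and 0 in BEAS-2B cells. The club cell markers SCGB1A1, SCGB3A1, SCGB3A2 and CYP2B6 had 0 counts in all 6 libraries, and so had the surfactant genes SFTPA1, SFTPA2 and SFTPC of alveolar type 2 cells. The 5 ciliated markers summed to a normalized count of 131, 218 and 259 in A549 and to 286, 258 and 326 in BEAS-2B cells, mostly from CAPS, and the 7 alveolar type 2 markers to 84.6, 186 and 187 and to 33.5, 5.63 and 6.30, mostly from ABCA3. Of the 6 goblet markers, TFF3 was at 0 throughout, and the secretory product CLCA1 was at 0 as well. The sum of the 5 fibroblast markers was a normalized count of 17.4, 306 and 68.0 in A549 cells, highest at 1 ng/mL through COL1A2 (5, 343 and 54 counts), and 158, 277 and 349 in BEAS-2B cells. Immune markers summed to 125, 69.4 and 60.8 in A549 and to 53.5, 19.1 and 7.56 in BEAS-2B cells, nearly all from CD68 and CD14, with CD3E and MS4A1 at 0 and PTPRC at no more than 4 counts. Endothelial markers VWF, CDH5, KDR and CLDN5 were at 0 throughout, and PECAM1 had at most 4 counts. The part of these markers in the results was not tested. As a check of the treatment, TGFBI, a matrix protein named for its induction by TGF-β, rose at 5 ng/mL by 7.64-fold (7.38 to 7.91) in the A549 and 6.08-fold (5.89 to 6.29) in the BEAS-2B library.

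Of the 21 other airway secretory products listed, 3 reached the minimum in A549 cells, each through the untreated library alone, and were called lower at both doses, against 12.6% and 17.1% of entries. Genes that reach the minimum this way had to be lower after treatment, so the count describes these genes and not the list. CEACAM6, a cell adhesion glycoprotein of secretory epithelia, had 662, 13 and 2 counts and fell 423-fold (117 to 3498) at 5 ng/mL. S100P, a calcium-binding protein, had 303, 8 and 2 counts and fell 193-fold (53.1 to 1605). SLPI, the secretory leukocyte protease inhibitor of airway fluid, had 185, 13 and 3 counts and fell 78.7-fold (26.5 to 385). Their order of doses was that of LCN2, with a few counts left at 1 ng/mL and at most 3 at 5 ng/mL.

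Below the minimum, FCGBP (84, 3 and 2 counts), a mucus protein that binds IgG Fc, and CEACAM5 (69, 0 and 2 counts) were low in both treated A549 libraries as well. In BEAS-2B cells no product of the list exceeded 12 counts. Of the 12 other mucins, 0 reached the minimum, and MUC13, a membrane mucin, had the most counts of them in untreated A549 cells, 74, followed by 33 and 18 at the doses. MUC3A had 18, 76 and 61 counts there. The genes MUC21 and MUC22 have several entries each, which were summed, and stood at 0.

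**Figure D3:**
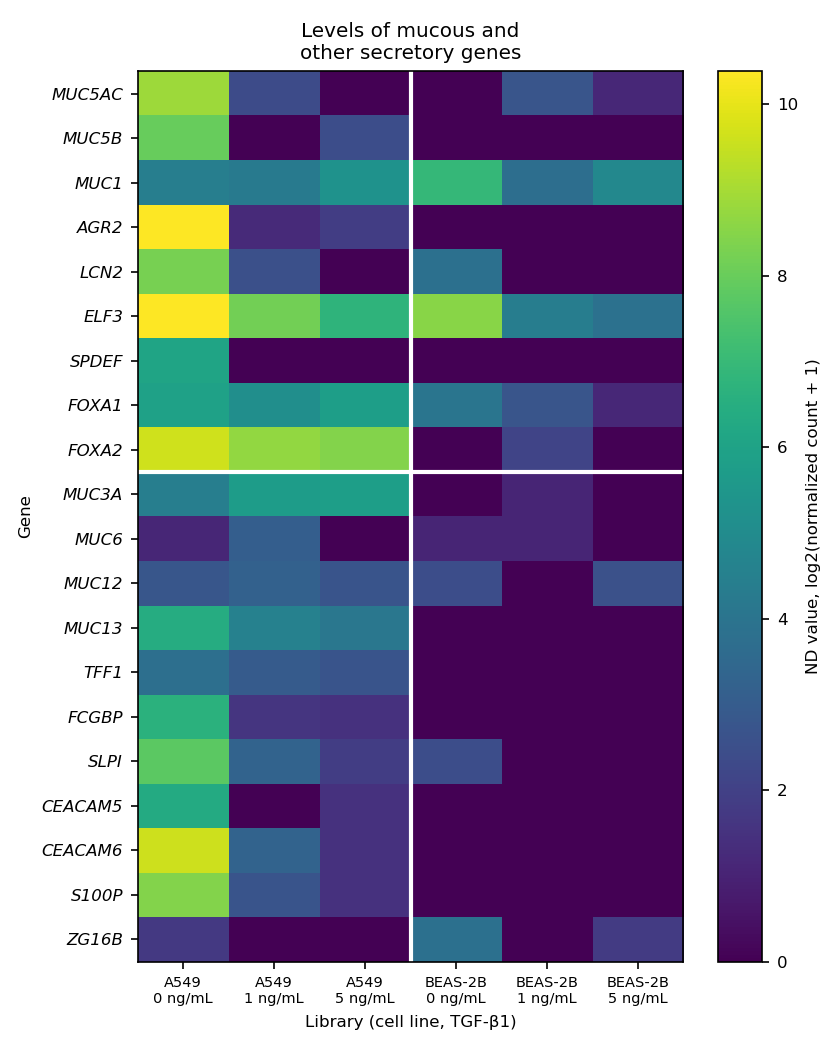
ND value, log2(normalized count + 1), of the 9 genes (above the white line) and of the other listed mucins and secretory products with over 10 counts in at least 1 library, one row per gene and one column per library. AGR2, CEACAM6, S100P, SLPI and FCGBP are bright in untreated A549 cells and dark in the other 5 libraries, while FOXA2 stays bright in all 3 A549 libraries.

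The enzymes that build mucin O-glycans did not move as a group. Of 21 listed, 10 reached the minimum in A549 cells at 5 ng/mL, of which 3 rose, 3 fell and 4 were not called. The median log2 FC over all 21 was -0.08. Of all 7115 entries at the minimum there, 1146 were called higher and 1220 lower. GCNT3, a branching enzyme of mucin glycans, had 619, 256 and 69 counts and fell 11.5-fold (8.92 to 14.9) at 5 ng/mL. GALNT4 fell 5.13-fold (3.89 to 6.84). GALNT6 and GALNT1, which like GALNT4 add the initial sugar to serine or threonine, rose 5.02-fold (3.33 to 7.83) and 2.59-fold (2.41 to 2.79).

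In BEAS-2B cells 5 of these enzymes reached the minimum at 5 ng/mL, of which 2 rose and 1 fell. Of all 6735 entries at the minimum there, 494 were called higher and 783 lower. GALNT10 rose 3.76-fold (3.35 to 4.22) and GALNT1 3.18-fold (2.61 to 3.90). C1GALT1C1, the chaperone of the core 1 enzyme, fell 2.70-fold (1.86 to 4.01). GCNT3 had 0 counts in all 3 BEAS-2B libraries.

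Of 13 genes of mucin folding and granule release, 4 reached the minimum in A549 and 8 in BEAS-2B cells at 5 ng/mL. XBP1, a factor of the unfolded protein response, fell 4.13-fold (3.50 to 4.88) in A549 cells from 617 to 191 counts. ERN2, known as the endoplasmic reticulum stress sensor of mucous cells, rose 3.03-fold (2.73 to 3.37) there, and its 950 to 1091 counts in BEAS-2B cells gave no call. ERN2 thus had counts in BEAS-2B cells, where AGR2, MUC5B and SPDEF had 0. Overlapping genes were looked up for the 9 genes alone and not for ERN2. The strand setting is not given, so reads of a gene that overlaps ERN2 would not be told apart. RAB3D, a GTPase of secretory granules, was the 1 gene of the list called in BEAS-2B cells and fell 3.11-fold (2.29 to 4.27). Of all 6735 entries at the minimum there, 11.6% were called lower.

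Of the 17 other epithelial transcription factors listed, 6 reached the minimum in A549 cells at 5 ng/mL, and 2 of these fell, against 17.1% of 7115 entries. SOX2, a factor of the airway lineage, had 217, 70 and 23 counts and fell 12.0-fold (7.82 to 19.4), graded over the doses as ELF3 was. HNF4A, a factor of endodermal epithelia, fell 2.03-fold (1.66 to 2.47). EHF, an ETS factor close to ELF3, had 56, 4 and 1 counts and stayed under the minimum. In BEAS-2B cells SOX9 fell 2.04-fold (1.63 to 2.57), while EHF, SOX2 and HNF4A had 0 counts.

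**Figure D4:**
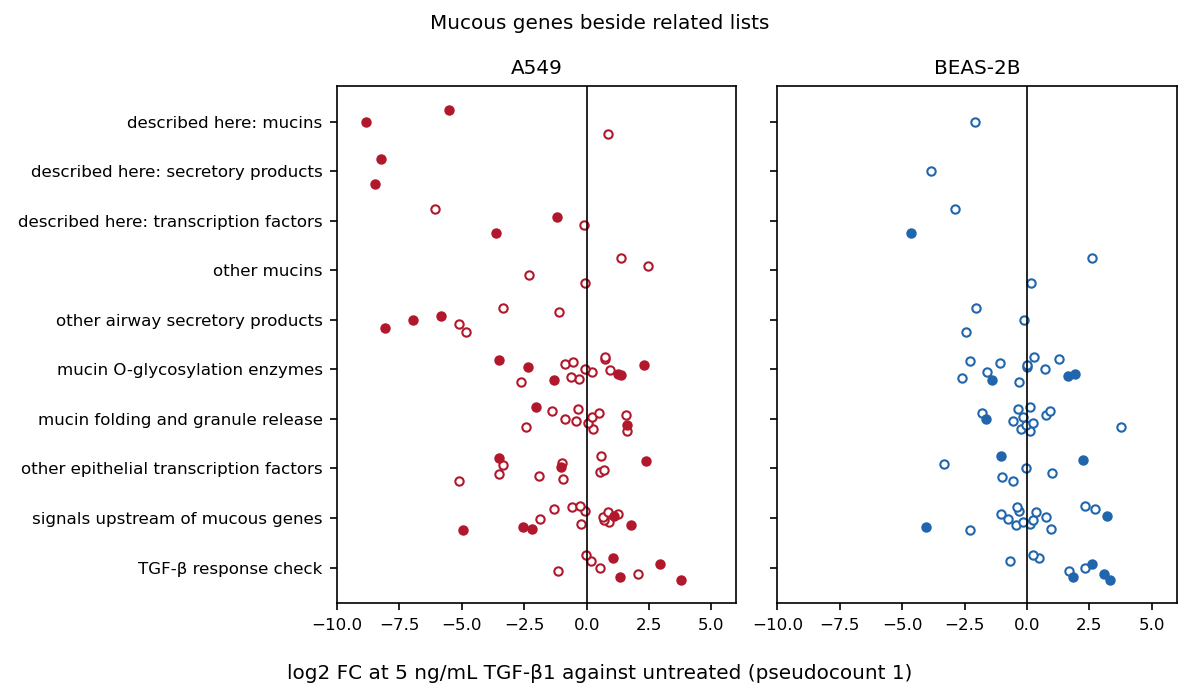
log2 FC at 5 ng/mL TGF-β1 against the untreated library, with a pseudocount of 1, for the 9 genes and the related lists in A549 (left) and BEAS-2B cells (right). Each point is 1 gene, filled when called, and genes with at most 3 counts in both libraries are left out. The mucous genes and the other secretory products of A549 cells reach log2 FC values under -8, and the lists of glycosylation, folding and other factors spread to both sides of 0.

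Among signals known to act on mucous genes, all 16 listed genes had counts. In A549 cells at 5 ng/mL, 2 rose and 3 fell of 10 at the minimum, beside 1146 called higher and 1220 called lower of all 7115 entries there. AREG, a ligand of the EGF receptor, had 317, 141 and 12 counts and fell 33.7-fold (19.0 to 66.0). CEBPD and CEBPB, transcription factors of the acute phase response, fell 5.81-fold (5.15 to 6.57) and 4.54-fold (3.94 to 5.24), and EGFR rose 3.43-fold (3.09 to 3.81). In BEAS-2B cells CEBPD had 850, 58 and 45 counts and fell 16.7-fold (12.4 to 23.1), and the Notch ligand JAG1 rose 9.38-fold (7.10 to 12.6). CEBPB did not fall there. It had 280, 310 and 489 counts, higher at 5 ng/mL and not called.

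Likeness of profile was measured by Pearson's r of the ND values over the 6 libraries, among 8159 entries that reached the minimum in at least 1. The libraries share their cell lines and controls, so r is a description. The 3 closest were SLX1A-SULT1A3, ITGB5 and DDX1 for MUC5AC, KIAA0100, AGR2 and LEO1 for MUC5B, and SLC12A2, CYC1 and ISCU for AGR2, with r from 0.978 to 0.998. They were GTF2IP4, FTH1 and THOC7 for LCN2, SMIM19, TM7SF3 and MYOF for ELF3, and PAPD5, LIPH and NKRF for FOXA2, with r from 0.996 to 0.998. Most of these genes share the shape of the profile and not its size. ITGB5, for example, had 2086 counts in untreated A549 cells and 1469 at 5 ng/mL.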

How the data were processed

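Total RNA of A549 and BEAS-2B cells was made into QuantSeq 3′ mRNA libraries, 1 for each of 6 conditions, and samples were assigned by their titles. The authors deposited raw counts, whole numbers of reads for each gene symbol. The submitters' processing notes name Bowtie2, bedtools and hg19, and give neither versions nor strand settings. A 3′ library reads the end of a transcript, so a gene with another 3′ end than the annotated one can be undercounted.

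Effective library sizes came from TMM (edgeR 4.0.16, R 4.3.3) over all entries of the 6 libraries. Conditions were compared within a cell line, where 1 library per condition leaves no test. No fit over both lines was run, and the criteria of the study (FC of 2, ND of 7) were used as a size rule. Python 3.11.15 (scipy 1.17.1, matplotlib 3.10.9) gave the intervals and figures. The calls and counting intervals of treated against untreated libraries were first tested on simulated counts, with known changes set in well-expressed genes. Other computations, among them the medians, list counts, likeness measures and alternatives, were not tested this way. Alternatives comprised size factors of DESeq2 1.42.0 and 14 others. Named genes were the 9 genes, up to 4 called genes per list and cell line with the largest log2 FC at 5 ng/mL, and the 3 most alike genes by r. Genes below the minimum, marker genes and the genes alike by distance were named after their values were seen. The genes and lists were chosen with earlier results of these data known. Gene positions came from GENCODE 29 on GRCh38 and promoters from RefSeq on GRCh38.p14. Some listed genes that met the naming rule are not reported here.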

Additional observations from a re-analysis of the deposited data

Results flagged for a closer look

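The 9 genes and the called genes with the largest log2 FC at 5 ng/mL of each list were searched for opposite directions. Other listed genes were not searched this way. Among those searched, EGFR and ABCA3 moved in opposite directions in the cell lines at both doses, each beyond its counting interval. EGFR had 439, 1971 and 1922 counts at 0, 1 and 5 ng/mL in A549 cells and 645, 504 and 424 in BEAS-2B cells. Its log2 FC at 5 ng/mL was 1.78 against -0.43, the latter under a 2-fold change and not called. ABCA3, a lipid transporter of alveolar type 2 cells, had 72, 255 and 194 counts in A549 and 23, 5 and 3 in BEAS-2B cells, a log2 FC of 1.07 against -2.48, and did not reach the ND minimum in BEAS-2B cells. With 1 library per condition the difference between the cell lines was not tested. None of the 9 mucous genes met this at both doses. MUC1 did so at 5 ng/mL, with a ratio of 1.83 (1.03 to 3.37) in A549 and 0.230 (0.138 to 0.366) in BEAS-2B cells, but at 1 ng/mL its A549 ratio of 0.857 (0.452 to 1.66) was within counting error.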

How the results depend on the processing

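The 9 genes were recounted under 15 alternatives. With an ND of at least 7 in both libraries, 1 gene was called in A549 cells at either dose and between the untreated lines. At this setting 0 genes were called in BEAS-2B cells at either dose and between the doses in A549 cells. Genes near 0 in 1 of the libraries compared cannot meet it. ELF3 in A549 cells at 5 ng/mL missed it with an ND value of 6.74. When ND was taken from log2(CPM + 1), A549 cells had 2 calls at 1 ng/mL and 3 at 5 ng/mL, with 3 between the untreated lines, and 0 in BEAS-2B cells and between the A549 doses. MUC1 joined ELF3 in BEAS-2B cells under total counts or an ND of at least 6, 2 genes at each dose. Without an ND minimum the calls were 6 and 5 in BEAS-2B cells at 1 and 5 ng/mL, 5 between the doses in A549 and 4 in BEAS-2B cells, several from a handful of counts. At an FC of at least 3, 0 genes were called between the A549 doses. The other 84 of 105 recounts stayed within 1.5 times. No called log2 FC changed sign. Under total counts the median log2 FC of entries at the minimum moved from 0.09 to -0.07 at 1 ng/mL and from 0.11 to -0.09 at 5 ng/mL in A549, and from 0.01 to -0.11 and from 0.03 to -0.10 in BEAS-2B cells. In A549 cells at 5 ng/mL calls over all entries moved from 1146 higher and 1220 lower to 798 and 1564. At 1 ng/mL they moved from 766 and 883 to 536 and 1131, and in BEAS-2B cells from 378 and 610 to 307 and 819 at 1 ng/mL and from 494 and 783 to 373 and 1013 at 5 ng/mL. FOXA2 in A549 cells at 1 ng/mL was called under total counts and at an FC of 1.5, and was not called at 5 ng/mL at an FC of 3. Depth limits the genes near 0 to bounds.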

Other observations

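A measure of likeness that also weighs the size of the differences was chosen after the values were seen, namely the distance between centred ND values over the 6 libraries. By it, AGR2 lay closest to RTN4RL2 (428, 1 and 0 counts in A549 and 0 in every BEAS-2B library), CEACAM6 and S100P. MUC5AC lay closest to FA2H (154, 2 and 0 counts in A549 cells), an enzyme of fatty acid hydroxylation, RTN4RL2 and AQP3, a water and glycerol channel. LCN2 lay closest to PKDCC, the chemokine CXCL2 and the cytokine IL18, and IL18 had 322, 43 and 5 counts in A549 and 48, 3 and 0 in BEAS-2B cells. ELF3 lay closest to CEBPD, CXCL2 and IMPA2. These genes were lower after treatment than in the control of both cell lines, as ELF3 was. FOXA2 lay closest to ARSD (398, 578 and 421 counts in A549, and 0, 6 and 0 in BEAS-2B), AKR1C3 and PRKX.

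Of the factors known to bind the E-box letters, SNAI1 had 25, 6 and 14 counts in A549 and 7, 36 and 22 in BEAS-2B cells, and SNAI2 had 4, 15 and 8 and then 10, 56 and 48. ZEB1 had 135, 374 and 358 counts in A549 cells and rose 2.08-fold (1.70 to 2.55) at 5 ng/mL, and it had 134, 137 and 166 in BEAS-2B cells. ZEB2 had 30, 57 and 38 counts in A549 and 157, 173 and 164 in BEAS-2B cells. Their part in the mucous genes was not tested.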
